A study of Saccharomyces cerevisiae with 10 samples.

Results

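Transcript levels in the budding yeast mutant ptc1 were set against those in the mutants ptc2, ptc3, ptc4 and ptc5, each of which carries a defect in another member of the type 2C protein phosphatase family. The comparison used all 10 arrays of the series: the 2 arrays of ptc1 and the 8 arrays of the other 4 mutants, 2 for each. Every array carried cDNA of 1 mutant together with cDNA of the same wild-type (wt) strain, and the dyes were swapped between array number 1, with mutant cDNA labelled by Cy5, and array number 2, with it labelled by Cy3. The arrays of ptc1 were compared only with arrays of the same number, and the wt common to both sides cancels in the difference. All cultures, wt included, were in log phase in YPD rich medium at 28 °C, taken between 0.6 and 0.8 absorbance units. The labels call the strains mutants of the named gene and give neither the kind of mutation nor the strain background. The design text lists 6 RNA samples, so each mutant was taken as 1 extract hybridised with both dye orientations.

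Type 2C phosphatases are metal-dependent and act on phosphorylated serines and threonines. In budding yeast Ptc1 dephosphorylates Hog1, the kinase of the high-osmolarity glycerol (HOG) pathway, and is brought to it by the adaptor Nbp2. Ptc1 is also known to act on the cell wall integrity pathway, in which Pkc1 and a kinase cascade activate Slt2, and Slt2 in turn activates the transcription factor Rlm1 at cell wall genes. Ptc2 and Ptc3 act on Hog1 and on the checkpoint kinase Rad53, and Ptc5 acts on mitochondrial pyruvate dehydrogenase.

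A level here is the log2 ratio of a mutant over wt after each array was centred on its own median, and a difference is the ptc1 level minus the mean level of ptc2 to ptc5 on arrays of the same number, averaged over both numbers. A gene is said to have risen or fallen when its difference was called above or below 0. This compares ptc1 with the other mutants, and the ptc1 level itself can lie near wt. No label states the base of the deposited logarithm, so log2 is an assumption. Of 6212 listed open reading frames (ORFs), 3606 had a value on all 10 arrays and were compared. Single arrays held from 4195 to 4802 values. As deposited, the array medians lay between −0.03 and 0.04 except on the second ptc2 array, where the median was 0.23. The median SD among the 4 other mutants was 0.11 and the median SD between the 2 ptc1 arrays was 0.12.

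The named phosphatase genes were examined first. PTC1 was at −1.94 and −1.85 on the ptc1 arrays, against a lowest, median and highest level of −0.47, −0.08 and 0.42 on the other 8 arrays. Both ptc1 arrays lay below all others, and PTC1 fell by 1.87 (SE 0.17, limma, adjusted p = 0.0032). PTC3 and PTC5 were near wt in ptc1, at 0.02 and −0.03 for PTC3 and at −0.13 and 0.11 for PTC5. Their differences of 1.95 (SE 2.70, limma, adjusted p = 0.71) and 0.56 (SE 0.85, adjusted p = 0.74) rest on the mutants of their own genes, which count among the other 4: PTC3 was at −8.78 and −6.91 in ptc3, and PTC5 at −2.46 and −2.34 in ptc5. PTC2 stood at 0.05 and 0.17 on the ptc1 arrays, against −8.09 on the 1 ptc2 array that measured it, and PTC4 had 1 value on the 10 arrays, −0.31 in ptc1, so the ptc4 strain was not checked by its own gene. PTC6 and PTC7 did not pass, which leaves 1 call among the 5 phosphatase genes compared.

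The ORFs called higher in ptc1 than in the other 4 mutants held 12 of 18 cell wall integrity targets and 13 of 27 general stress genes, and those called lower held 10 of 12 Ty frames, 13 of 56 ribosome biogenesis genes and 6 of 21 iron uptake genes. These and all later gene lists were written with earlier results of these data known. Their counts beside the share of all ORFs are therefore descriptions, not tests. In all, 100 ORFs were higher in ptc1, 2.77% of those compared, and 71 were lower, 1.97%, at a limma adjusted p of at most 0.05. Together the 171 ORFs made up 4.74%. Of these, 22 were at least 2-fold higher and 3 at least 2-fold lower. The smallest called difference was 0.44 in size, the median difference of the higher ORFs 0.72 and that of the lower ORFs −0.64. The median over all 3606 ORFs was −0.03. On array number 1 and on array number 2 the 171 called ORFs had the same sign. The call, made on the mean of both numbers, nearly fixes this agreement. Across all ORFs, which are not independent replicates, 73.2% had the same sign and the differences on the 2 numbers had r = 0.76. The ptc1 array lay beyond all 4 other mutants on both numbers for 1104 ORFs, 30.6% of those compared, made up of 456 above (12.6%) and 648 below (18.0%). For the called ORFs this is nearly fixed by the call itself, and it held for 170 of the 171, or 99.4%, all but URA7. The same count was 452 ORFs for ptc2 (12.5%), 242 for ptc3 (6.71%), 164 for ptc4 (4.55%) and 409 for ptc5 (11.3%), a description with no test.

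The limma test rests on 5 extracts with 3 residual degrees of freedom and takes ptc1 to vary like the others; an exact permutation test of 1 extract against 4 cannot give a p below 0.2. The counts depended on which mutant or array number was left out. Without ptc4 17 higher and 3 lower ORFs were called, and without ptc5 46 and 20. With array number 1 alone 31 and 4 were called, and with array number 2 alone 14 and 2. Without ptc2 or without ptc3 both counts stayed within 1.5 times of the main ones. The differences moved less than the counts. Without ptc4 the median difference of the cell wall integrity targets was 0.76, against 0.78, and the median SE was 0.137, against 0.122. A fit over the 10 arrays with their number as replicate block called 262 higher and 254 lower ORFs, among them all 171 called here, and is one whose spread is technical if both arrays of a mutant hold the same extract. Called under all 12 refits were HSP12, YPS3, SED1, MSC1, NCW2, PST1, YOR289W, SLT2, GOR1 and STF2 among the higher ORFs and PTC1 and SIT1 among the lower.

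**Figure D1:**
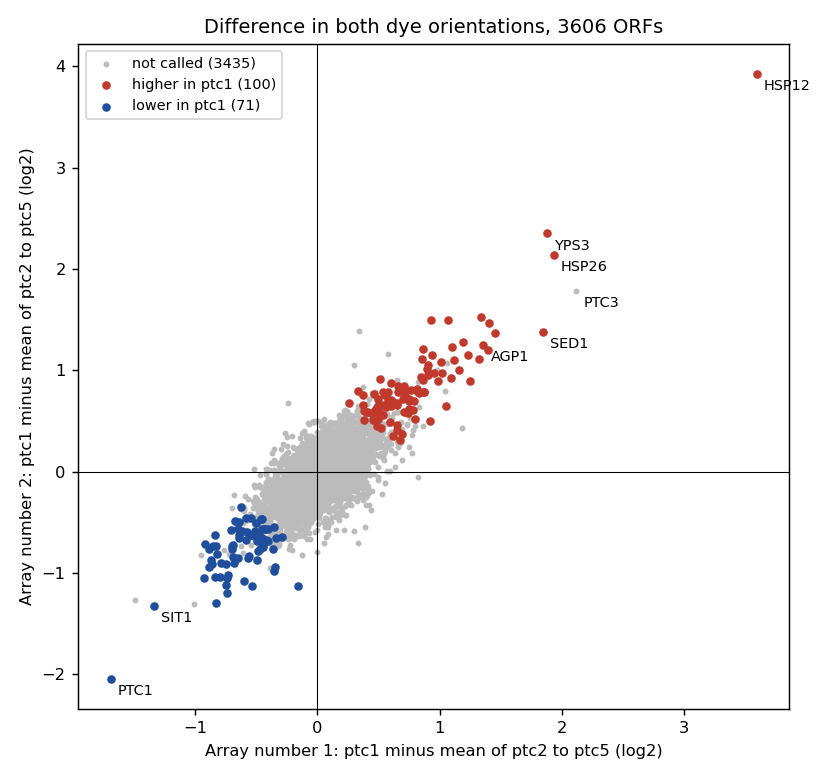
Difference of each of the 3606 ORFs (ptc1 minus the mean of ptc2 to ptc5, log2) on array number 1 (horizontal axis) and array number 2 (vertical axis), with the 100 called higher ORFs in red and the 71 called lower ORFs in blue. All 171 called ORFs lie in the quadrants where both numbers have the same sign, which the call on the mean of both numbers nearly fixes. HSP12 is the point furthest out.

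Most of the compared cell wall integrity targets, genes that Slt2 and Rlm1 are known to activate, rose in ptc1. Of 30 listed genes 18 were compared, 12 rose and none fell, against 2.77% of all ORFs higher. Without ptc2 the count was also 12, without ptc4 it was 6, and it was 7 on array number 1 alone and 6 on number 2 alone. The median difference of the list was 0.78, with 0.78 on each array number, against −0.03 for all ORFs. The median level was 0.96 and 0.67 on the ptc1 arrays and lay between −0.16 and 0.24 on the other 8. In 15 of the 18 genes ptc1 lay above all 4 other mutants on both numbers, against 12.6% of all ORFs. YPS3 (yapsin, a protease anchored at the surface) had levels of 1.86 and 2.01 in ptc1, against a lowest, median and highest level of −0.72, −0.18 and 0.35 on the other 8 arrays. No other array came within 1.5 log2 units of either ptc1 value, and YPS3 rose by 2.12 (SE 0.24, adjusted p = 0.0052). SED1, a major structural wall glycoprotein, was at 1.80 and 1.07 in ptc1, against −0.39, −0.19 and 0.13 on the others. It rose by 1.61 (SE 0.12, adjusted p = 0.0013), and the lower ptc1 array was still well above the highest of the others. NCW2, a wall protein, was at 1.34 and 1.13 in ptc1, against −0.54, −0.14 and 0.03. FLC2, a membrane protein of calcium and FAD transport, was at 1.27 and 1.25 in ptc1, against −0.18, −0.10 and 0.60. Both rose, NCW2 by 1.41 (SE 0.15) and FLC2 by 1.23 (SE 0.16), and the 0.60 of FLC2 was on the first ptc3 array.

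The cell surface gene PST1 was at 1.501 and 0.763 in ptc1, against −0.40, −0.11 and 0.29 on the others, and rose by 1.21 (SE 0.10, adjusted p = 0.0020). PST1 is also on the zinc (Zap1) list of 10 genes, where it was the 1 call, against 2.77% of all ORFs higher. The median of that list was −0.12. SLT2 is itself among the 12 called targets and is described with the pathway components. The other 6 called targets, named after their values were seen, were PIR3, TOH1, CWP2, CCW14, DFG5 and CIS3, with differences between 0.66 and 0.89. CWP2, CCW14, PIR3 and CIS3 encode structural wall proteins, and DFG5 a protein needed for wall biogenesis at the bud. In ptc1, PIR3 was at 1.05 and 1.04, and CWP2 differed more between its arrays, at 0.97 and 0.14. RLM1, CWP1, SCW10, KRE6, GAS1 and MID2 did not pass, and MID2, a sensor of wall stress, had a negative difference, −0.49.

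Among the components of the cell wall integrity pathway 1 of 15 compared was called, against 2.77% of all ORFs higher. It was SLT2, the kinase gene already counted among the targets. SLT2 was at 1.13 and 1.32 in ptc1, against −0.21, 0.06 and 0.23 on the others, and rose by 1.19 (SE 0.11, adjusted p = 0.0026). The median of the component list was 0.08. None of 15 HOG pathway components was called by limma, and 1 had an unadjusted p of at most 0.05, against 23.0% of all ORFs. Their median of 0.01 had no stable sign: it was −0.04 in the values as deposited and on array number 2 alone. The differences ran from −0.22 to 0.44; the largest were MSB2, a mucin-like sensor, at 0.44 (SE 0.13, adjusted p = 0.094) and STE50, an adaptor, at 0.39 (SE 0.17, adjusted p = 0.23). Of 14 calcineurin (Crz1) targets and calcium transport genes 2 rose, against 2.77% of all ORFs, with a median of 0.48. They were DFG5, by 0.73, and PUN1, a plasma membrane protein gene, by 0.66. DFG5 is already counted among the called cell wall integrity targets. Members that did not pass included PMC1, the vacuolar calcium pump, at 0.57 (adjusted p = 0.050) and CMK2, a calmodulin-dependent kinase, at 1.06 (adjusted p = 0.11). On the ptc1 arrays the level of this list had medians of 0.42 and 0.38, and on the other 8 arrays medians between −0.20 and 0.06.

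**Figure D2:**
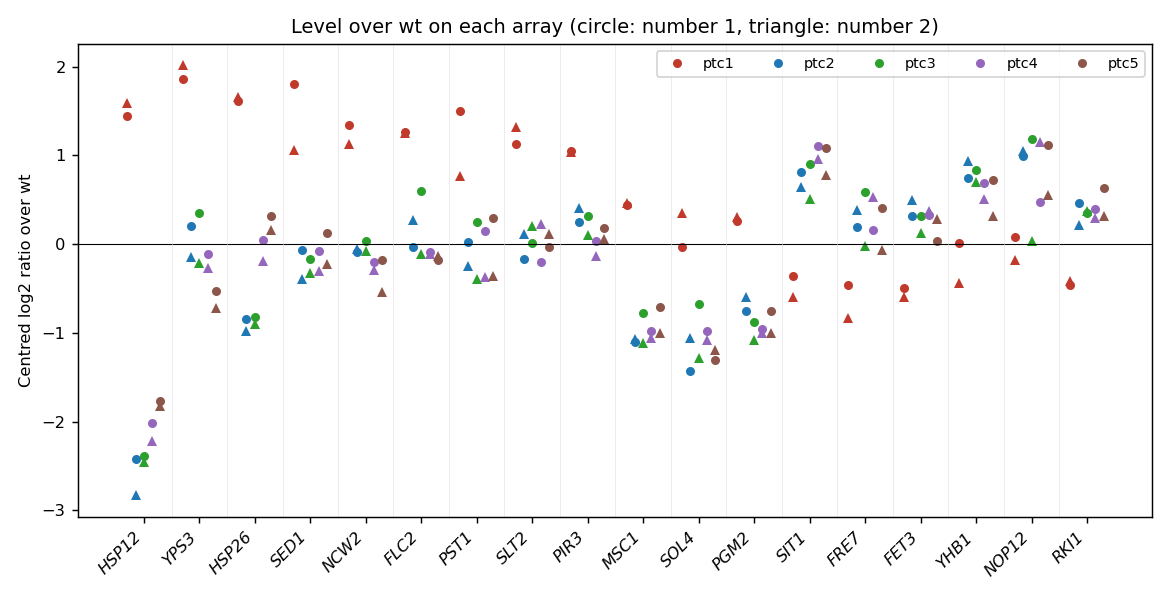
Level over wt (centred log2 ratio) of 18 genes on every array, ptc1 in red at the left of each gene and ptc2 to ptc5 to its right, circles for array number 1 and triangles for array number 2. For YPS3, SED1, NCW2, PST1 and SLT2 the 8 arrays of the other mutants scatter around 0 while ptc1 is high, whereas for MSC1, SOL4 and PGM2 it is the other mutants that lie about 1 log2 unit below wt.

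Of 27 general stress (Msn2/4) genes compared, 13 rose and none fell, against 2.77% of all ORFs higher and 1.97% lower. The count was 13 without ptc2, 6 without ptc4, 8 on array number 1 alone and 4 on number 2 alone. The median difference was 0.65. The median level was 0.11 and 0.13 on the ptc1 arrays and lay between −0.45 and −0.33 on the other 8 arrays. HSP12, a small membrane-associated stress protein, was at 1.44 and 1.59 in ptc1, against a lowest, median and highest level of −2.83, −2.30 and −1.77 on the others. It had the largest difference of all called ORFs, 3.76 (SE 0.27, adjusted p = 0.0013). HSP26, a small heat shock chaperone, was at 1.61 and 1.66 in ptc1, against −0.98, −0.51 and 0.31. The other mutants disagreed on HSP26, with means of −0.91, −0.87, −0.07 and 0.23 in ptc2 to ptc5, and the rise of 2.03 had the larger SE of 0.41 (adjusted p = 0.035). SPI1, a wall protein induced by weak acid, was at 0.55 and 0.30 in ptc1, against −1.51, −1.02 and −0.38. MSC1 was at 0.45 and 0.47 in ptc1, against −1.12, −1.03 and −0.71. Both rose by 1.43, SPI1 with an SE of 0.29 and MSC1 with one of 0.12, the 4 other mutants being closer together for MSC1. HSP104, HSP42, CTT1 and SSA4, also stress genes, had differences of 0.02, 0.01, 0.19 and −0.27 and did not pass.

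Of 13 genes listed as osmostress output 5 rose and 1 fell, against 2.77% and 1.97% of all ORFs, with a median of 0.40. Their response to osmostress was not tested. HSP12 and ALD3 among them are also on the general stress list. Besides HSP12, the small stress gene HOR7 was at 0.61 and 0.12 in ptc1, against −1.46, −0.92 and −0.49 on the others, and rose by 1.30 (SE 0.17, adjusted p = 0.011). ALD3, a cytosolic aldehyde dehydrogenase, rose by 0.71 (SE 0.14), and GCY1, a glycerol dehydrogenase, and GPP2, a glycerol-3-phosphatase, rose by 0.63 and 0.60. The member that fell, by 0.65 (SE 0.12, adjusted p = 0.027), was CHA1, which encodes the catabolic serine and threonine deaminase. GPD1, the glycerol-3-phosphate dehydrogenase of glycerol synthesis, had a difference of 0.20 (adjusted p = 0.36). Without ptc4, without ptc5 and on either array number alone, 2 osmostress genes rose and none fell.

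Among trehalose and glycogen genes, 3 of 12 rose, against 2.77% of all ORFs. The median of 0.28 was unequal between the array numbers, 0.47 on number 1 and 0.09 on number 2. PGM2, the main phosphoglucomutase, was at 0.26 and 0.31 in ptc1, against −1.08, −0.92 and −0.60 on the others, and rose by 1.16 (SE 0.14, adjusted p = 0.0072). GLC3, the glycogen branching enzyme, and GSY2, the main glycogen synthase, rose by 1.04 and 0.66. Without ptc4, 2 of the list rose, and 1 on either array number alone. PGM2 and GSY2 are also on the general stress list. In the pentose phosphate pathway 1 of 9 rose and 1 fell, against 2.77% and 1.97% of all ORFs, with a median of −0.13. The gene that rose, SOL4, is also on the general stress list, and the other 8 had negative differences. SOL4, a 6-phosphogluconolactonase, was at −0.03 and 0.35 in ptc1, against −1.43, −1.14 and −0.68, and rose by 1.28 (SE 0.14). RKI1, ribose-5-phosphate isomerase, was at −0.46 and −0.41 in ptc1, against 0.21, 0.36 and 0.63, and fell by 0.82 (SE 0.11, adjusted p = 0.011).

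Of 21 respiratory chain and ATP synthase genes 7 rose and none fell, against 2.77% of all ORFs higher, with a median of 0.50. In 17 of the 21 ptc1 lay above all 4 other mutants on both numbers, against 12.6% of all ORFs. The count was 7 without ptc2, 2 in the values as deposited, and 0 without ptc4, without ptc5 and on either array number alone, with medians between 0.45 and 0.51 in these. The list's median level was 0.11 and −0.03 on the ptc1 arrays and lay between −0.62 and −0.23 on the other 8. NDI1, the internal NADH dehydrogenase, had the largest difference of the list, 0.78, and did not pass. QCR9, a subunit of the cytochrome bc1 complex, was at 0.25 and 0.11 in ptc1, against −0.84, −0.52 and −0.34, and rose by 0.72 (SE 0.14, adjusted p = 0.033). QCR8 and CYT1, of the same complex, and COX13, of cytochrome c oxidase, rose by 0.66, 0.65 and 0.62. SDH4, a membrane anchor of succinate dehydrogenase, rose by 0.72. It was the 1 call of 12 TCA cycle genes, against 2.77% of all ORFs higher, and their median was 0.14. CIT2, the peroxisomal citrate synthase and the classical target of the retrograde pathway, was at 1.61 and 1.36 in ptc1, against −0.08, 0.35 and 0.74, and rose by 1.11 (SE 0.21, adjusted p = 0.031). It was the 1 call of 9 retrograde genes, again against 2.77% of all ORFs higher, and their median was 0.10. None of 8 genes of the pyruvate dehydrogenase complex and its kinases was called, with a median of 0.15; the largest besides PTC5 was PKP1, a mitochondrial kinase, at 0.51 (adjusted p = 0.078).

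The iron uptake (Aft1) list held 21 compared genes, and whether Aft1 controls each of them was not tested. Of these 21 genes 6 fell and none rose, against 1.97% of all ORFs lower, with a median of −0.21. The count was 6 without ptc2, 2 without ptc4, 3 without ptc5 and 1 on either array number alone. SIT1, a transporter of iron-siderophore complexes, was at −0.36 and −0.60 in ptc1, against a lowest, median and highest level of 0.51, 0.86 and 1.10 on the others. It fell by 1.33 (SE 0.15, adjusted p = 0.0050), with the 2 sides on opposite sides of wt. FRE7, a metalloreductase, was at −0.46 and −0.83 in ptc1, against −0.06, 0.29 and 0.59. FET3, the ferroxidase of high-affinity iron uptake, was at −0.49 and −0.60, against 0.04, 0.32 and 0.49. FRE7 fell by 0.92 (SE 0.11) and FET3 by 0.83 (SE 0.13). ARN2, a siderophore transporter, fell by 0.77, and FRE1, a surface reductase, and FTR1, the permease partner of Fet3, named after their values were seen, fell by 0.63 and 0.59. The wall mannoprotein gene FIT3 had the largest difference of the list, −1.38, but differed so much among the other mutants (SE 0.36) that it did not pass (adjusted p = 0.072).

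None of 15 phosphate (Pho4) genes was called by limma, and 5 had an unadjusted p of at most 0.05, against 23.0% of all ORFs. Of the 15, 8 lay below all 4 other mutants on both numbers, against 18.0% of all ORFs, and the median was −0.27. PHO84, the high-affinity phosphate transporter, was at 0.16 and −0.04 in ptc1, against 0.68, 1.18 and 1.80 on the others, a difference of −1.16 (SE 0.30, adjusted p = 0.072). PHO11, an acid phosphatase with a near-identical copy that can share hybridisation, was at 0.25 and −0.10, against 0.26, 0.99 and 1.46, a difference of −0.89 (SE 0.23, adjusted p = 0.068). For both genes every array of the other mutants was above wt and above the ptc1 arrays, but the other mutants were far apart from each other.

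**Figure D3:**
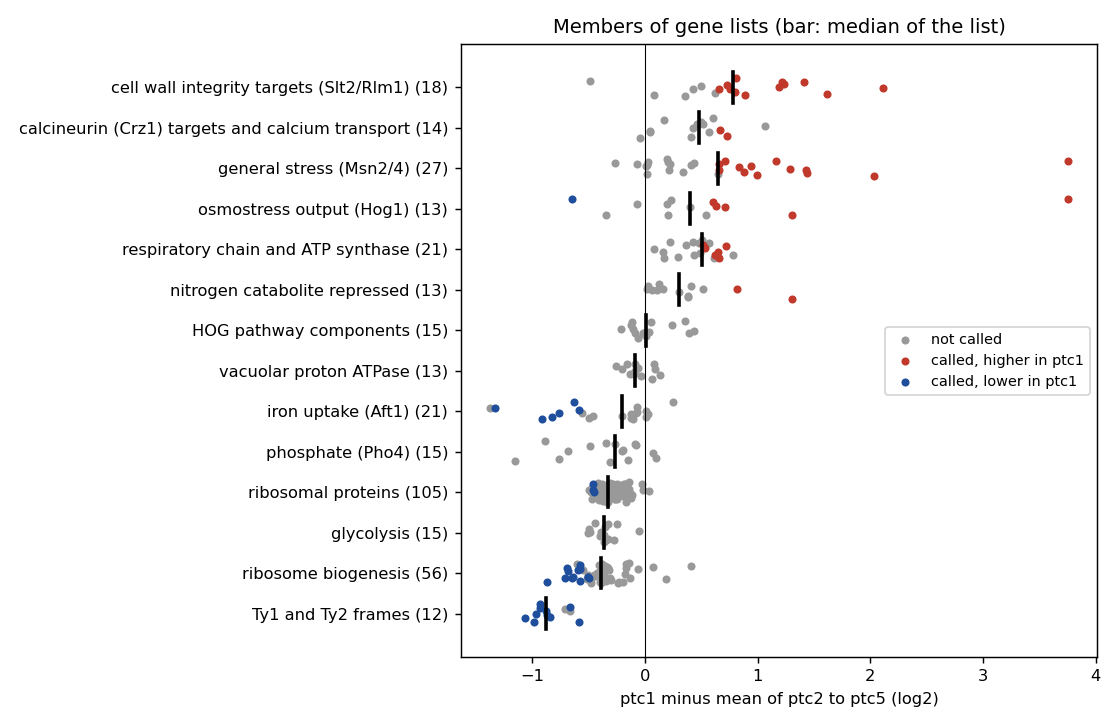
Difference of each compared member (ptc1 minus the mean of ptc2 to ptc5, log2) in 14 gene lists, with the number compared in brackets, called members in red (higher) or blue (lower) and a bar at the median of the list. Medians run from 0.78 for cell wall integrity targets to −0.88 for Ty frames, and HOG pathway components, vacuolar proton ATPase, phosphate and glycolysis genes hold no called member.

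Of 56 ribosome biogenesis genes 13 fell and none rose, against 1.97% of all ORFs lower, and 37 lay below all 4 other mutants on both numbers, against 18.0% of all ORFs. The count was 11 without ptc2, 2 without ptc5, and 0 on either array number alone and without ptc4, where the median was −0.37, against −0.39 with all 4 mutants. The median level was −0.09 and −0.06 on the ptc1 arrays and lay between 0.19 and 0.57 on the other 8. NOP12, a nucleolar RNA-binding protein, was at 0.08 and −0.18 in ptc1, against 0.04, 1.02 and 1.18 on the others, and fell by 0.87 (SE 0.15, adjusted p = 0.025). The second ptc3 array, at 0.04, lay below the first ptc1 array, so the groups were apart only within each array number. NOP12 was at 1.18 and 0.04 on the ptc3 arrays and at 0.47 and 1.15 on the ptc4 arrays. The Ty frame YAR010C was alike there, at 1.19 and 0.10 in ptc3 and at 0.59 and 1.34 in ptc4. The cause of this likeness was not tested. NSR1, a nucleolin-like protein, DBP2, a DEAD-box RNA helicase, and RRP1, of 27S pre-rRNA processing, fell by 0.71, 0.70 and 0.68. Their mean levels were −0.13, −0.06 and −0.25 in ptc1, against 0.585, 0.634 and 0.431 in the others. In RNA polymerase I and III genes 2 of 21 fell, RPC82 of polymerase III by 0.54 and RPO26, a subunit common to the nuclear polymerases, by 0.47, against 1.97% of all ORFs lower, with a median of −0.27. Neither was called in the values as deposited, without ptc4, without ptc5 or on either array number alone.

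Cytosolic ribosomal protein genes had a median difference of −0.33, and 79 of 105 lay below all 4 other mutants on both numbers, against 18.0% of all ORFs. Only 3 of the 105 fell singly, a share near the 1.97% of all ORFs called lower: RPS11A, RPL13B and RPL33A, by 0.46, 0.46 and 0.45 (adjusted p = 0.049, 0.048 and 0.046). None of these 3 was called without any of ptc2, ptc3, ptc4 or ptc5. Many of these genes have a near-identical copy that can share hybridisation. Their levels moved with the array number: the list median was −0.12 on the first and −0.45 on the second ptc1 array, and for each other mutant it was also lower on the second, as with 0.24 and −0.14 in ptc5. The difference taken within a number was steadier, −0.32 on number 1 and −0.35 on number 2. Glycolysis genes behaved alike, with median levels of 0.10 and −0.52 on the ptc1 arrays and differences of −0.26 and −0.47. None of 15 glycolysis genes was called by limma, although 12 had an unadjusted p of at most 0.05, against 23.0% of all ORFs. The largest differences were those of PFK2, a phosphofructokinase subunit, at −0.50 (adjusted p = 0.10) and TDH2, a glyceraldehyde-3-phosphate dehydrogenase, at −0.50 (adjusted p = 0.051). Mitochondrial ribosomal protein genes had no call among 43, with a median of 0.04 that was −0.01 in the values as deposited.

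Of 13 nitrogen catabolite repressed genes 2 rose, against 2.77% of all ORFs, with a median of 0.30. AGP1, a broad amino acid permease, was at 0.74 and 0.81 in ptc1, against −1.24, −0.47 and 0.05 on the others, and rose by 1.30 (SE 0.27, adjusted p = 0.038). PRB1, the vacuolar proteinase B, rose by 0.81. Among amino acid biosynthesis (Gcn4) genes SER3, of serine synthesis, was the 1 call of 37, a share close to the 2.77% of all ORFs, and rose by 0.64, with a list median of −0.09. SER3 was not called in the values as deposited or without ptc2. Of 14 sulfate and methionine genes SAM1, an S-adenosylmethionine synthetase, fell by 0.71 and MET3, ATP sulfurylase, rose by 0.60, with a median of −0.01 that was 0.04 on array number 1 alone. Of 19 purine genes GUA1, GMP synthase, fell by 0.61 and GCV1, of the glycine cleavage system, rose by 0.55, with a median of 0.06. The sulfate and methionine list and the purine list each held 1 call per direction, against 2.77% of all ORFs higher and 1.97% lower. In the lists of TCA cycle, retrograde, calcineurin, nitrogen, amino acid, sulfate and methionine, purine, RNA polymerase, Hsf1 chaperone, antioxidant and mating genes, which held 1 or 2 calls each, no member was called without ptc4 or on array number 2 alone.

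Of 12 Ty1 and Ty2 retrotransposon frames compared 10 fell, against 1.97% of all ORFs lower, and all 12 lay below all 4 other mutants on both numbers, against 18.0%. These frames are near-identical copies that can share hybridisation, so they are not separate results. The list's median level was 0.02 and −0.27 on the ptc1 arrays and ran from 0.23 to 1.22 on the others, with a median difference of −0.88. YAR010C had the largest difference, −1.06 (SE 0.17, adjusted p = 0.018), followed by YJR028W, YML045W and YJR026W, between −0.99 and −0.94. All 12 were called without ptc2, 6 without ptc5, and none without ptc4 or on either array number alone.

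Outside these lists, the larger lower ORFs were REE1, a regulator of enolase, fallen by 0.91, YHB1, the flavohaemoglobin that detoxifies nitric oxide, by 0.89, FAA3, a long-chain acyl-CoA synthetase, by 0.84 and YJL218W by 0.83. YHB1 was at 0.02 and −0.44 in ptc1, against 0.32, 0.71 and 0.94 on the others. Among the higher ORFs were YOR289W, risen by 1.21 (SE 0.14), and AIM17, by 1.07 (SE 0.21). SSE2, a chaperone of the Hsp110 family, was the 1 call of 23 Hsf1 chaperone genes, against 2.77% of all ORFs higher. It rose by 0.68, while the median of that list was −0.17. PRX1, a mitochondrial peroxiredoxin, and CCP1, cytochrome c peroxidase, rose by 0.74 and 0.54. They were the 2 calls of 24 antioxidant genes, against 2.77% of all ORFs higher. The median of the antioxidant list was −0.01, or 0.04 on array number 2 alone. STE4, the beta subunit of the pheromone-coupled G protein, fell by 0.57. It was the 1 call of 16 mating pathway genes, against 1.97% of all ORFs lower, and their median was −0.06.

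No member was called in the lists of seripauperin and TIR/DAN mannoproteins (16 compared, median 0.36), hexose transport and sensing (9, median 0.05, or −0.01 in the values as deposited), unfolded protein response (20, median 0.08), proteasome (30, median −0.07), histones (5, median −0.10), G1 cyclins and Start (14, median 0.08), S phase and checkpoint (10, median −0.03, or 0.01 on array number 1 alone), vacuolar proton ATPase (13, median −0.09) and sterol and phospholipid synthesis (17, median −0.09). The differences with the largest size in each were 0.99 for PAU19 (adjusted p = 0.089), 0.40 for the glucose transporter gene HXT6, −0.43 for KAR2 (the ER chaperone BiP), −0.25 for the proteasome subunit gene RPN8, −0.25 for HHF2 (histone H4), 0.42 for the cyclin gene PCL2, 0.41 for RFX1 (a repressor of damage-induced genes), −0.26 for the proteolipid subunit gene VMA3 and −0.42 for ERG3, a sterol desaturase (adjusted p = 0.075). PAU12 shows how far the other mutants were apart in the seripauperin family, at 0.21 in ptc1 against −1.41, 0.31, −0.23 and −1.29 over the 4 others. Genes specific to haploid a or alpha cells were also not called: the 3 a-specific genes compared, BAR1, MFA2 and STE6, had differences between −0.37 and 0.03, and the alpha-specific SAG1 one of −0.19. The 16 lists with no call also include the HOG, pyruvate dehydrogenase, phosphate, glycolysis and mitochondrial ribosomal protein lists given above. Over all 16, 38 of 234 members had an unadjusted p of at most 0.05 in limma, against 23.0% of all ORFs. The share was uneven, with 12 of the 38 among the 15 glycolysis genes and 0 among the 30 proteasome genes. Ratios over wt do not show the mating type itself.

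**Figure D4:**
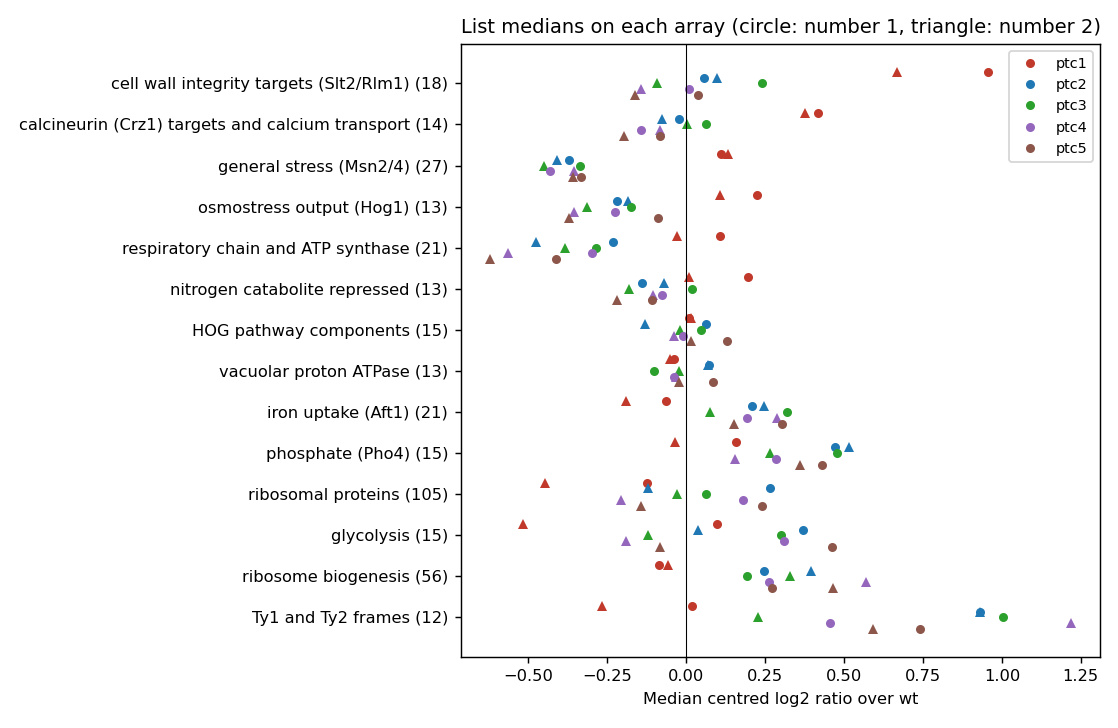
Median level over wt (centred log2 ratio) of 14 gene lists on each array, ptc1 in red above ptc2 to ptc5 in each row, circles for array number 1 and triangles for array number 2. For the cell wall integrity targets the ptc1 arrays stand at 0.96 and 0.67 and the others between −0.16 and 0.24, whereas general stress, respiratory chain and ribosome biogenesis lists are near wt in ptc1 and away from it in the other mutants. The Ty list is at 0.02 and −0.27 in ptc1 and between 0.23 and 1.22 in the others.

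The called ORFs were then divided by which side stood further from wt. A shift of the single wt culture would move both sides alike, so it would alter this division but not the differences. Of the 100 higher ORFs, ptc1 was at least 2 times as far from wt as the mean of the others in 41, the others were at least 2 times as far as ptc1 in 33, and in 26 they stood on opposite sides of wt at more equal distances. In the first of these groups, which held YPS3, HSP26, SED1 and NCW2, the median level was 0.65 in ptc1 and −0.08 in the others. In the second, which held SPI1, MSC1, HOR7 and SOL4, it was 0.14 in ptc1 and −0.51 in the others. HSP12, AGP1, YOR289W and AIM17 belonged to the third, with medians of 0.35 in ptc1 and −0.42 in the others. Of the 71 lower ORFs only 8 stood further from wt in ptc1, PTC1, FRE7, REE1 and YJL218W among them, with a median of −0.59 in ptc1 and 0.07 in the others. In 40 lower ORFs the others stood further from wt, with medians of −0.11 in ptc1 and 0.57 in the others, led by Ty frames. The remaining 23, led by SIT1, FAA3, FET3 and RKI1, had medians of −0.30 in ptc1 and 0.32 in the others. No called ORF had both sides on the same side of wt at distances within 2 times of each other.

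**Figure D5:**
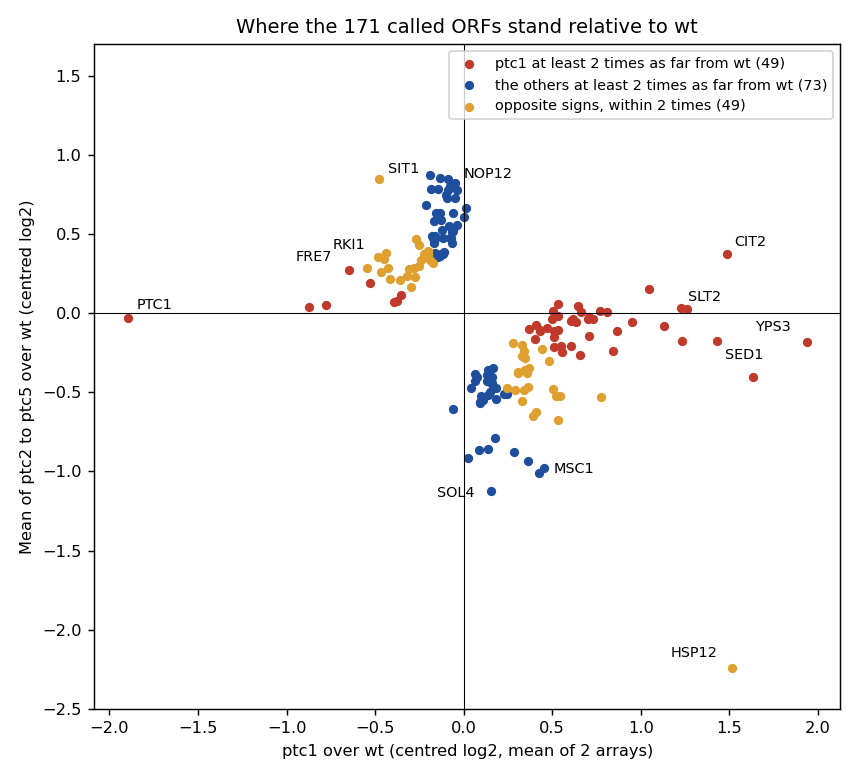
Level over wt (centred log2 ratio) in ptc1 (horizontal axis, mean of 2 arrays) and in the mean of ptc2 to ptc5 (vertical axis) for the 171 called ORFs, coloured by which side stood further from wt. Red points (49) spread along the horizontal axis, blue points (73) along the vertical axis near a ptc1 level of 0, and SIT1 and HSP12 are far from wt in both directions.

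Which of the 4 other mutants stood nearest to ptc1 was counted for the called ORFs only. Among the 100 higher ORFs the mutant nearest to ptc1 was ptc3 in 38, ptc5 in 33, ptc2 in 23 and ptc4 in 6. Among the 71 lower ORFs it was ptc3 in 36, ptc2 in 13, and ptc4 and ptc5 in 11 each. The same count was not made over all ORFs, so these counts do not show that a mutant is closer to ptc1 in general. The median distance of the higher ORFs was nonetheless alike, 0.73 from ptc2, 0.67 from ptc3, 0.74 from ptc4 and 0.70 from ptc5, and that of the lower ORFs −0.69, −0.60, −0.66 and −0.67. Over all ORFs, 51 differed at least 2-fold between ptc1 and ptc2, 22 between ptc1 and ptc3, 35 between ptc1 and ptc4 and 43 between ptc1 and ptc5. On both array numbers ptc1 lay at least 1 log2 unit beyond the nearest other mutant for 8 ORFs above, HSP12, YPS3, HSP26, SED1, MSC1, NCW2, PST1 and SLT2, and for 2 below, PTC1 and SIT1.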

How the data were processed

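Per the labels, cDNA from 8 µg of total RNA was coupled to Cy3 or Cy5, and the authors left out spots under 120 µm across or under 150 intensity units. The deposited values were taken as log2 ratios of mutant over wt; no source used here gives their log base, background correction, normalization or software. The direction was taken from the labels and from PTC1, PTC3 and PTC5, which were negative in their own mutants. Signal intensities were not used here.

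A RefSeq table of assembly R64 named 5639 of the 6212 identifiers by locus tag and 48 by an older name. Each array was centred on its median over all its values, the 2 arrays of a mutant were averaged, and limma 3.58.1 (R 4.3.3) was fitted to the 5 means, ptc1 against the other 4, with Benjamini-Hochberg adjustment over 3606 ORFs; calls are two-sided with an adjusted p up to 0.05, and measure no spread between cultures of 1 mutant. Deviations of array number 1 from number 2 went together across mutants (r from 0.17 to 0.67 over 10 pairs), so array numbers, which are the dye orientation in the labels, pair the arrays. The alternatives were other centring, missing-spot and size rules, robust moderation, arrays as samples, and fits without 1 array number or 1 mutant.

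On simulated data for 3606 ORFs the fit called 12%, 66%, 100% and 98% of ORFs changed by 0.5, 1, 1.5 and 2 in log2, and 3 unchanged ORFs. The simulation gave ptc1 the same spread as the other mutants and drew independent noise for each ORF, with no shared dye deviation. It therefore cannot check whether ptc1 varies like the others, and does not give the number of false calls in the data. The comparison and 40 gene lists were chosen with earlier results of these data known; lists were described by counts and medians only. Named are the phosphatase genes, the 12 highest and 12 lowest called ORFs beyond all other mutants on both array numbers, up to 4 called members per list (2 by size where none was called), and up to 4 per division by distance from wt; other names were chosen after their values were seen. Promoter motifs, planned as a description, were not analysed here.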

Additional observations from a re-analysis of the deposited data

Results flagged for a closer look

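In 2 of the 64 called genes that are named, 1 of the 4 other mutants stood apart from the remaining 3 by Dixon's ratio. The ratio was above its 95% critical value, which chance exceeds in about 1 in 20 groups. It is relative to the range of the 4 values, so the step itself can be small. RKI1 was at 0.475 in ptc5, above its levels of 0.34, 0.36 and 0.35 in ptc2, ptc3 and ptc4 and on the side away from ptc1. RPL33A was at 0.118 in ptc2, above its levels of 0.06 in each of ptc3, ptc4 and ptc5. That step was smaller than the median SD of 0.11 among the other mutants, and the 2 ptc2 arrays were at 0.36 and −0.13. Of the 12 refits, RKI1 was called in 10 and RPL33A in 2.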

How the results depend on the processing

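Against 100 higher and 71 lower ORFs, the values as deposited gave 62 higher and 61 lower, ORFs with at least 1 array per mutant 64 and 25, and arrays as samples without the replicate block 95 and 40. With the array number as replicate block, as the pairing of the arrays allows, 262 were higher and 254 lower, including all 171. Leaving out 1 array number or 1 mutant gave from 14 to 113 higher and from 2 to 76 lower ORFs, lowest without array number 1. Robust moderation, a fold minimum of 1.5 and centring on the ORFs present on all arrays, the last chosen after seeing the data, stayed within 1.5 times of both counts. No called gene that is named changed direction under any of the 12 refits; without ptc4, 16 of 64 were called.

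List medians near 0 changed sign: hexose transport was at −0.006 and mitochondrial ribosomal proteins at −0.012 in the values as deposited, against 0.049 and 0.043. Over the fits that leave out 1 array number or mutant, antioxidant defence ranged from −0.029 to 0.035, and type 2C phosphatases, with 5 members, from −0.049 to 0.194. HOG components, at 0.011, ranged from −0.042 to 0.066 over these fits and were at −0.044 as deposited, sulfate and methionine genes ranged from −0.052 to 0.038, and S phase genes from −0.065 to 0.013. The cause of these shifts was not tested. With 1 extract per mutant, the spread of ptc1 itself was not measured, and signal over background was not used here.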

Other observations

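Some ORFs lacked a value on 1 to 3 of the 10 arrays and were called when at least 1 array per mutant was enough (limma, 4257 ORFs): 14 were higher in ptc1 and 1 was lower. Their missing arrays leave the dye orientations unequal between mutants, so that fit does not compare within an array number, and for those named here, chosen after their values were seen, only levels on an array number that all 5 mutants have are given. CRH1, a wall transglycosylase, was at 1.24 in ptc1 on array number 2, against −0.42 to 0.13 in the other mutants. PRM5, a known target of the cell wall integrity pathway, was at 1.48 in ptc1 on array number 1, against 0.02 to 0.36 in the others. GAP1, the general amino acid permease, was at 1.03 in ptc1 on array number 2, against −0.89 to −0.43 in the others.

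On array number 1, SRL3 was at 1.85 in ptc1, against −0.74 to 0.15 in the others, and AFR1 at 1.44, against −0.62 to −0.13. In each of these 5 genes ptc1 lay above all other mutants on that array number, which has 1 array per mutant and gives no test. KDX1, a paralogue of SLT2 and a known target of its pathway, was measured on 3 arrays only, at 2.79 and 2.77 in ptc1 and at −0.87 on the first ptc5 array.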
